A study of Mus musculus with 6 samples.

Results

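Autophagy is the process by which a cell encloses part of its own contents in a double membrane, the autophagosome, and delivers them to the lysosome for breakdown. The 35 genes described here encode that machinery. They were taken by name, as all rows of the count table whose Entrez Gene identifier belongs to a list of mouse symbols, and the list was chosen with earlier results of these data known. All 35 symbols matched a row, out of 26286 genes in the table.

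The libraries come from leukemia cells of 1 tri-transgenic mouse leukemia, named A024, a B progenitor acute lymphoblastic leukemia. Of 6 RNA-seq libraries, 3 came from mice fed doxycycline (dox) for 3 days, labelled as Pax5 restoration and sorted as GFPmid cells. The other 3 came from untreated mice (0 days of dox), sorted as GFPhigh cells. All cells were flow-sorted from the bone marrow of Rag1 knockout mice, animals that as background lack mature B and T cells but keep myeloid, erythroid and natural killer cells. The series counts a separate mouse for each library, so p-values measure the spread between mice that carry the same leukemia. As background from general knowledge of such models, dox shuts off a hairpin RNA that had kept Pax5, the factor of B cell identity, low, and GFP marks the hairpin's transcript. Dox, the return of Pax5 and the sort gate changed together and cannot be told apart, and no dox-fed animals without the hairpin were analysed here.

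As further background, autophagy begins with the Ulk kinase complex, which senses nutrient state, and with a lipid kinase complex that marks the growing membrane with phosphatidylinositol 3-phosphate. Scramblases, lipid transfer proteins and lipid readers then extend the membrane, and a ubiquitin-like conjugation system fixes proteins of the Atg8 family (LC3 and GABARAP) to it. Cargo receptors bind both the cargo and the Atg8 proteins, and several of them are destroyed together with their cargo. In lymphocytes, autophagy is known for the support of long-lived and B-1 B cells and for the clearance of mitochondria. Much of its control acts on proteins by phosphorylation and conjugation, which counts of RNA do not measure.

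Total counts ran from 14432213 to 15612435 in dox and from 14185203 to 15053258 in untreated libraries. Levels are given as CPM, the counts of a gene scaled by the size of its library. Pax5 itself measured 227.2, 281.2 and 230.6 CPM in dox replicates 1, 2 and 3, against 153.8, 93.5 and 105.2 CPM in untreated replicates 1, 2 and 3. Of 10 markers of B cell progenitors all were measured, with a sum of 9342 to 10610 CPM in dox and 4765 to 5173 CPM in untreated libraries. The single markers were uneven. Mean levels in dox and untreated libraries were 1372 and 132.3 CPM for Rag1, 428.7 and 359.6 CPM for Ebf1, and 27.17 and 35.05 CPM for Dntt. The 8 markers of neutrophils summed to 496.8, 105.2 and 235.5 CPM in dox replicates 1, 2 and 3, against 106.9, 82.6 and 97.5 CPM in untreated replicates 1, 2 and 3, led by S100a9 and S100a8. S100a9 measured 169.9, 31.2 and 78.2 CPM in the dox libraries, against 39.1, 29.9 and 29.3 CPM in the untreated ones, and S100a8 106, 22.9 and 57.1 CPM in the dox libraries, against 23.1, 15 and 19.3 CPM in the untreated ones. The 8 markers of macrophages summed to 27.9 to 35.6 CPM in dox and 6.37 to 12.6 CPM in untreated libraries. Their most abundant genes were Vcam1, at 11.1, 9.26 and 9.54 CPM in the dox libraries, against 2.59, 1.07 and 0.544 CPM in the untreated ones, and Cd68, at 4.28, 4.46 and 4.16 CPM in the dox libraries, against 3.98, 3.15 and 3.74 CPM in the untreated ones. The 8 erythroid markers summed to 1.25 to 7.31 CPM in dox and 3.82 to 5.31 CPM in untreated libraries, with Hba-a1 and Hbb-b1, the most abundant, at no more than 2.96 CPM. The 8 markers of T and natural killer cells summed to 2.76 to 9.82 CPM in dox and 4.19 to 5.10 CPM in untreated libraries, with Cd3e and Cd8a at 0. Their most abundant genes were Klrb1c, at 1.97, 9.19 and 2.43 CPM in the dox libraries, against 2.94, 3.35 and 4.69 CPM in the untreated ones, and Trac, at 0.0658, 0.278 and 0.064 CPM in the dox libraries, against 1.19, 1.07 and 0.34 CPM in the untreated ones.

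Groups were compared with the quasi-likelihood test of edgeR over all genes, and a gene is said to have risen or fallen after dox where its adjusted p was under 0.05. Of the 35 genes, 34 had enough counts to be tested. After dox 21 of them rose, 1 fell and 12 did not pass the test. The 21 that rose are 61.8% of the 34, beside 27.0% of all 12275 genes tested, and the 1 that fell is 2.94%, beside 26.6% of all genes tested. The changes were mostly small. The median log2 fold change of the 34 was 0.30, beside 0.01 over all genes tested. Of the 34, 4 rose (Calcoco1, Map1lc3a, Atg16l2 and Sqstm1) and 1 fell (Optn) by 1.5-fold or more. Over all 12275 genes tested, 1785 (14.5%) rose and 1445 (11.8%) fell by that much. The 1785 come from 3316 genes that rose at any size, and the 4 from 21. The median level of the 34 was 56.9 CPM, against 35.1 CPM over all genes tested, and counting error is smaller at higher levels. In bulk samples, a difference in the share of cells of a type and a difference in RNA per cell cannot be told apart.

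Every dox library lay above every untreated library for 25 of the 34 genes and below for 1, while 8 overlapped. Over all genes tested those shares were 31.2% above and 31.0% below. The 25 comprise the 21 that rose and 4 that did not pass (Atg13, Atg14, Atg16l1 and Tax1bp1). The median of the log2 ratio of the 34 genes to their untreated means was 0.27, 0.34 and 0.27 in dox replicates 1, 2 and 3. The summed macrophage markers were higher in every dox library than in any untreated one, and the summed neutrophil markers were higher in dox replicates 1 and 3 than in any untreated library and within the untreated range in dox replicate 2. The part of either in these results was not tested.

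**Figure D1:**
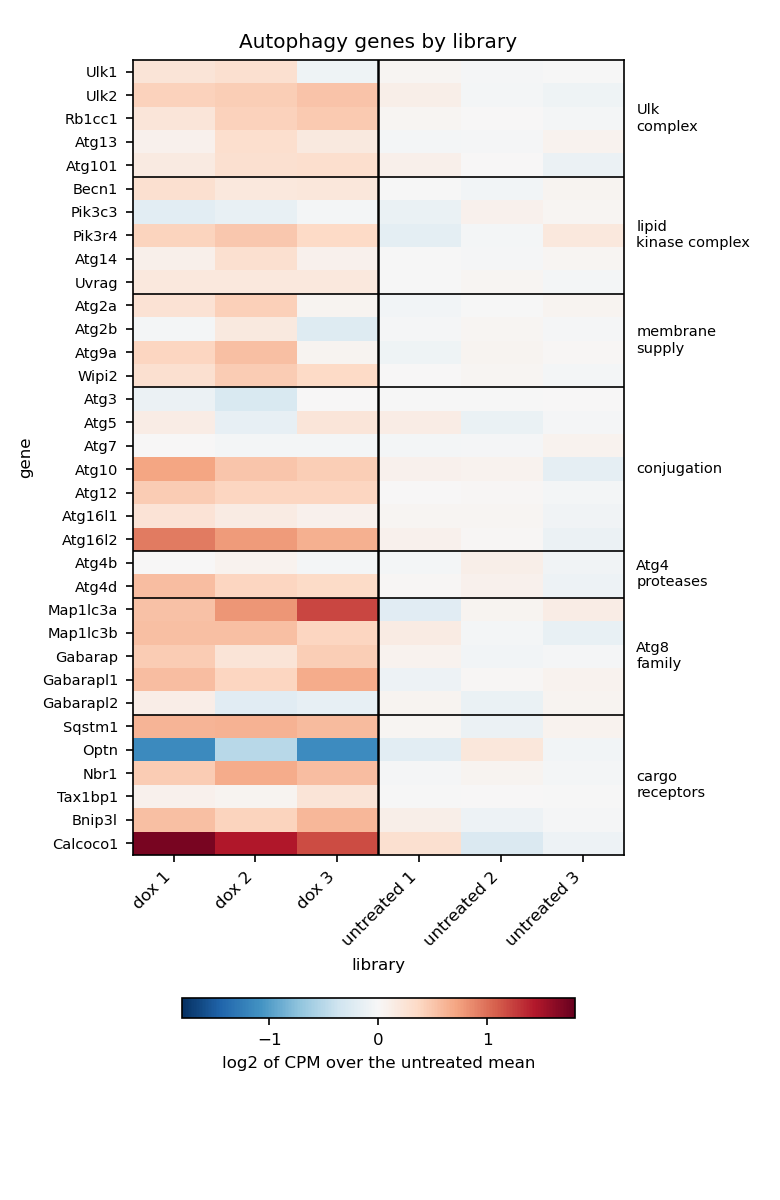
Level of the 34 tested autophagy genes in each library, as the log2 of CPM over the mean of the untreated libraries, with genes in rows by role and libraries in columns. The rows of Calcoco1, Atg16l2 and Sqstm1 are red in all 3 dox libraries, and Optn is blue in all 3.

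The Ulk complex starts autophagy, with the kinases Ulk1 and Ulk2, the scaffold Rb1cc1 (also called Fip200) and the adaptors Atg13 and Atg101. Of these 5 genes 3 rose (60.0%, beside 27.0% of all genes tested). Ulk2 rose most clearly, with 88.2, 90.1 and 95.1 CPM in dox replicates 1, 2 and 3, against 71.2, 64.9 and 62.9 CPM in untreated replicates 1, 2 and 3 (log2 fold change 0.46, SE 0.07, adjusted p = 0.000794). Rb1cc1 measured 101, 116 and 121 CPM in the dox libraries, against 88.7, 86.7 and 84.5 CPM in the untreated ones (log2 fold change 0.38, SE 0.08, adjusted p = 0.0033). For both genes the groups were well apart, with dox replicate 3 highest. Atg101, which stabilises Atg13, measured 54, 58.8 and 59.7 CPM in the dox libraries, against 51.5, 48.3 and 45 CPM in the untreated ones (log2 fold change 0.25, SE 0.08, adjusted p = 0.0245). Its groups were apart by a narrow gap, and the call was lost without dox replicate 2 (adjusted p = 0.0501), dox replicate 3 (0.0751), untreated replicate 2 (0.0709) or untreated replicate 3 (0.104), with a range of 0.0172 to 0.104 over the alternatives tried.

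Ulk1, the kinase best known for receiving the signals of mTORC1 and AMPK, did not pass the test. It measured 64.8, 67.4 and 52.4 CPM in the dox libraries, against 56.5, 54.1 and 54.8 CPM in the untreated ones (log2 fold change 0.16, SE 0.10, adjusted p = 0.203). Dox replicates 1 and 2 lay above the untreated libraries and dox replicate 3 below them, and without dox replicate 3 the gene was called higher (log2 fold change 0.25, adjusted p = 0.0213, range over the alternatives 0.0213 to 0.484). Atg13 had a log2 fold change of 0.19 (SE 0.08, adjusted p = 0.0708) and passed without dox replicate 1 (adjusted p = 0.0433, range 0.0433 to 0.199). Scaled by gene length, Atg101 was the most abundant of the 5 at 46.7 CPM per kilobase in dox and 39.2 in untreated libraries, and Ulk1 was at 11.8 and 10.6.

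The lipid kinase complex makes the phosphatidylinositol 3-phosphate that recruits later factors. It is built from the catalytic subunit Pik3c3 (Vps34), the scaffold Pik3r4 (Vps15) and Becn1 (Beclin 1), with either Atg14 for autophagy or Uvrag for endosomal traffic. Of these 5 genes 3 rose (60.0%, beside 27.0% of all genes tested), and neither Pik3c3 nor Atg14 passed the test. Pik3r4 measured 56.8, 59.9 and 55.2 CPM in the dox libraries, against 38, 41.9 and 48.7 CPM in the untreated ones (log2 fold change 0.42, SE 0.10, adjusted p = 0.00534). Becn1, the most abundant of the 5 per kilobase, measured 169.7, 159 and 161 CPM in the dox libraries, against 139, 134 and 144 CPM in the untreated ones (log2 fold change 0.23, SE 0.06, adjusted p = 0.0134). Uvrag measured 85.5, 86 and 85.4 CPM in the dox libraries, against 75, 77.2 and 73.5 CPM in the untreated ones (log2 fold change 0.19, SE 0.06, adjusted p = 0.032). The 3 dox values of Uvrag lay within 1 CPM of each other and above all untreated ones, at a fold change of 1.14. Uvrag was lost without any single library (adjusted p = 0.0602 to 0.124, and 0.0172 to 0.131 over all alternatives). Becn1 was lost without dox replicate 1 (0.0607) or untreated replicate 2 (0.0719), with a range of 0.00878 to 0.0719. Pik3c3 had a log2 fold change of −0.12 (SE 0.08, adjusted p = 0.22) and Atg14 of 0.16 (SE 0.10, adjusted p = 0.193), neither past the threshold.

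Membrane for the growing autophagosome comes through Atg9a, a lipid scramblase carried on vesicles, and Atg2a and Atg2b, which transfer lipid, while Wipi1 and Wipi2 read the lipid mark and Wipi2 recruits the conjugation machinery. Wipi2 rose, with 127, 143 and 134 CPM in the dox libraries, against 104, 107 and 101 CPM in the untreated ones (log2 fold change 0.37, SE 0.07, adjusted p = 0.00168). Atg9a measured 48.8, 54.2 and 38.7 CPM in the dox libraries, against 35.6, 38.5 and 38 CPM in the untreated ones (log2 fold change 0.34, SE 0.12, adjusted p = 0.035), and Atg2a 80.7, 90.6 and 69.9 CPM in the dox libraries, against 64.9, 67.2 and 69.8 CPM in the untreated ones (log2 fold change 0.26, SE 0.10, adjusted p = 0.0498). For Atg9a and Atg2a, dox replicate 3 stood barely above the highest untreated library, while dox replicate 2 was highest. Both calls were lost without dox replicate 1, dox replicate 2 or any 1 of the untreated libraries, at adjusted p between 0.0718 and 0.105 for Atg9a and between 0.086 and 0.143 for Atg2a. Over all alternatives the ranges were 0.00285 to 0.105 and 0.0101 to 0.143. Atg2b, the paralog of Atg2a, had the same order of dox libraries, at 80.8, 94 and 70.9 CPM in the dox libraries, against 81.9, 85.1 and 81.7 CPM in the untreated ones, and its groups overlapped (log2 fold change −0.02, SE 0.10, adjusted p = 0.894). Wipi1 had 10 counts over the dox libraries, against 4 over the untreated ones, too few to be tested.

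The conjugation system resembles that of ubiquitin. Atg7 is the activating enzyme, Atg3 and Atg10 are the conjugating enzymes, and Atg12 is joined to Atg5 in a complex with Atg16l1 that places Atg8 proteins on the membrane. The largest rise here was that of Atg16l2, a homolog of Atg16l1 whose part in autophagy is less clear, with 54.8, 48.8 and 44.6 CPM in dox replicates 1, 2 and 3, against 30.2, 29.2 and 26.6 CPM in untreated replicates 1, 2 and 3 (log2 fold change 0.78, SE 0.10, adjusted p = 0.000149). This is a 1.72-fold higher level, and the lowest dox library was well above the highest untreated one. Atg16l1 itself had a log2 fold change of 0.16 (SE 0.08, adjusted p = 0.109). Per kilobase, Atg16l2 stood at 22.8 CPM in dox and 13.2 in untreated libraries, and Atg16l1 at 12.0 and 10.8.

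On the Atg12 branch, Atg12 measured 76, 72.3 and 71.8 CPM in the dox libraries, against 55.6, 56.1 and 53.9 CPM in the untreated ones (log2 fold change 0.41, SE 0.07, adjusted p = 0.000824). Atg10, which joins Atg12 to Atg5 and is expressed at a low level, measured 11.4, 9.88 and 9.48 CPM in the dox libraries, against 7.41, 7.31 and 6.25 CPM in the untreated ones (log2 fold change 0.55, SE 0.14, adjusted p = 0.0092). Both were above the untreated range in all 3 dox libraries. By contrast the 3 remaining enzymes and partners did not pass. The log2 fold changes were −0.02 (SE 0.09, adjusted p = 0.859) for Atg7, 0.07 (SE 0.11, adjusted p = 0.586) for Atg5 and −0.12 (SE 0.09, adjusted p = 0.26) for Atg3. Of these, Atg7 was nearly level at 19.5 ± 0.29 CPM in dox and 19.8 ± 0.736 CPM in untreated libraries (SD, n = 3 each).

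Atg4 proteases cut Atg8 proteins to prepare them for conjugation and later to free them from the membrane. Atg4d, a paralog known for releasing GABARAP proteins from membranes, measured 36.3, 32.3 and 31.5 CPM in the dox libraries, against 25.1, 26 and 23.2 CPM in the untreated ones (log2 fold change 0.43, SE 0.09, adjusted p = 0.0029). Atg4b, the main protease of the family, measured 46.9, 48.6 and 45.5 CPM in the dox libraries, against 45.2, 49.9 and 44.5 CPM in the untreated ones and overlapped between groups (log2 fold change 0.01, SE 0.07, adjusted p = 0.906). The table also holds Atg4a, outside the 35 genes, with a log2 fold change of −0.01 (SE 0.11, adjusted p = 0.943).

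Of the Atg8 family, whose lipid-bound forms mark autophagosomes, 4 of 5 genes rose, beside 27.0% of all genes tested. Map1lc3b, which encodes the LC3B protein used as the standard marker, measured 98.4, 99.1 and 89 CPM in dox replicates 1, 2 and 3, against 75.3, 66.4 and 62 CPM in untreated replicates 1, 2 and 3 (log2 fold change 0.49, SE 0.09, adjusted p = 0.00143). Gabarap measured 172, 147 and 171 CPM in the dox libraries, against 132, 121 and 124 CPM in the untreated ones (log2 fold change 0.38, SE 0.08, adjusted p = 0.00289). Gabarapl1 measured 22.5, 20.1 and 24.3 CPM in the dox libraries, against 14.5, 15.6 and 16.1 CPM in the untreated ones (log2 fold change 0.54, SE 0.10, adjusted p = 0.00216). In each of these the lowest dox library lay above the highest untreated one. Map1lc3a, the LC3A gene, had only 30, 34 and 49 counts in dox replicates 1, 2 and 3, against 17, 21 and 22 counts in untreated replicates 1, 2 and 3 (log2 fold change 0.87, SE 0.27, adjusted p = 0.0235). Its call was lost without dox replicate 3 (adjusted p = 0.0933), untreated replicate 1 (0.0703), untreated replicate 2 (0.0612) or untreated replicate 3 (0.0506), and by DESeq2 (0.0678), with a range of 0.0194 to 0.0933. Gabarapl2, also called GATE-16, did not pass, with 10.2, 8.14 and 8.45 CPM in the dox libraries, against 9.72, 8.65 and 9.72 CPM in the untreated ones (log2 fold change −0.07, SE 0.14, adjusted p = 0.709).

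Per kilobase the family was dominated by Gabarap in both groups, at 146 CPM per kilobase in dox and 112 in untreated libraries, or 63.1% and 63.4% of the family's summed level. Map1lc3b made up 24.2% in dox and 22.4% in untreated libraries. Gabarapl2 made up a smaller share after dox, while its own level did not pass the test (log2 fold change −0.07, adjusted p = 0.709). Its share was 6.70%, 5.99% and 5.71% in dox replicates 1, 2 and 3, against 8.29%, 8.04% and 8.94% in untreated replicates 1, 2 and 3, with no overlap. An exact permutation test on such shares could reach no less than p = 0.1 with 3 libraries in each group. A pseudogene copy of Gabarapl2, Gabarapl2-ps, has no row of its own, and how reads matching both were counted is not known.

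The cargo receptors showed the widest range. Calcoco1, a receptor described for the endoplasmic reticulum and the Golgi, had the largest change of all 34 genes. It measured 52.1, 43.1 and 36.1 CPM in dox replicates 1, 2 and 3, against 19.4, 13.3 and 15 CPM in untreated replicates 1, 2 and 3 (log2 fold change 1.46, SE 0.16, adjusted p = 9.91e-05), a 2.75-fold higher level. The untreated libraries all lay under 20 CPM and the dox libraries over 36 CPM. Optn (optineurin), a receptor for damaged mitochondria and bacteria, was the gene that fell. It measured 16.2, 25.6 and 16.4 CPM in dox replicates 1, 2 and 3, against 31.7, 41.5 and 34.9 CPM in untreated replicates 1, 2 and 3 (log2 fold change −0.90, SE 0.18, adjusted p = 0.00229). Dox replicate 2 was the highest of the dox libraries and lay under all untreated ones. That library had the fewest neutrophil marker counts of its group. The summed macrophage markers had another order, at 35.6, 31.8 and 27.9 CPM in dox replicates 1, 2 and 3. The part of other cells in the difference of Optn was not tested.

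Sqstm1, which encodes a ubiquitin-binding receptor that is itself degraded by autophagy, measured 199, 200.3 and 193 CPM in the dox libraries, against 132, 121 and 136 CPM in the untreated ones (log2 fold change 0.60, SE 0.07, adjusted p = 9.71e-05). Nbr1, its structural relative, measured 136, 156 and 144 CPM in the dox libraries, against 97.1, 102 and 95.9 CPM in the untreated ones (log2 fold change 0.56, SE 0.07, adjusted p = 0.00022). Both sets of libraries were narrow and apart, at 1.52-fold for Sqstm1 and 1.48-fold for Nbr1. Bnip3l (Nix), a receptor on mitochondria, averaged 107 ± 7.23 CPM in dox and 74.5 ± 5.28 CPM in untreated libraries (SD, n = 3 each), with log2 fold change 0.52, SE 0.08, adjusted p = 0.000642. A pseudogene copy of it, Bnip3l-ps, has a row of its own at 37.3 CPM in dox and 25.3 CPM in untreated libraries and rose alongside it (log2 fold change 0.56, adjusted p = 0.000237), so the split of reads between the 2 rows is uncertain. Tax1bp1, another ubiquitin-binding receptor, averaged 286 ± 19.2 CPM in dox and 263 ± 1.81 CPM in untreated libraries (SD, n = 3 each) and did not pass (log2 fold change 0.12, SE 0.07, adjusted p = 0.157).

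**Figure D2:**
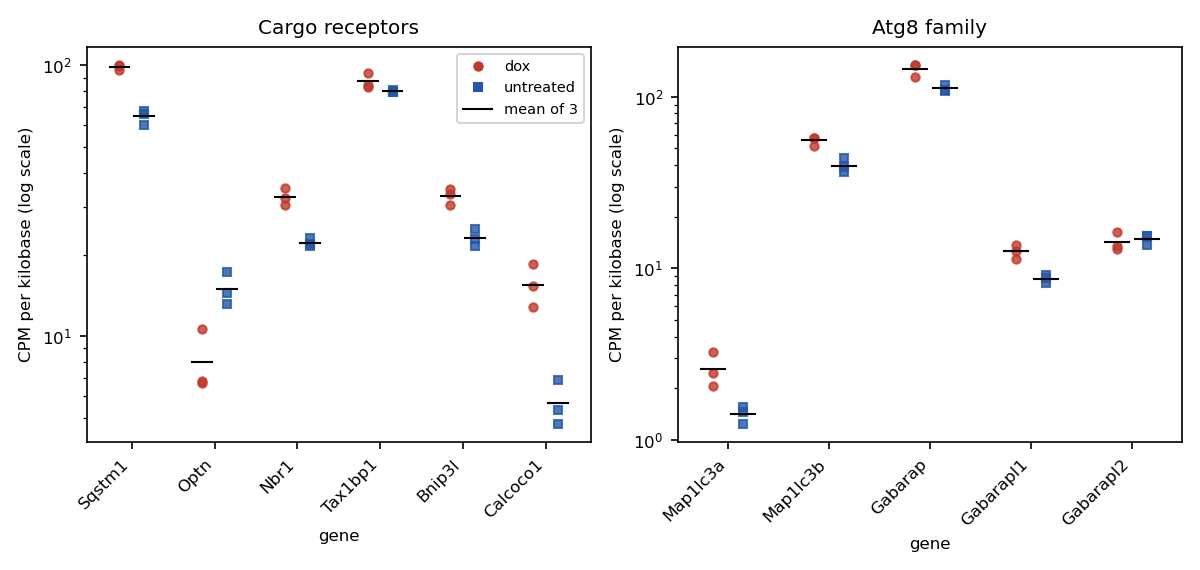
Length-scaled level (CPM per kilobase, log axis) of the cargo receptors and of the Atg8 family in each library, dox as circles left of untreated as squares, with bars at the mean of 3. Optn is the gene whose dox libraries all lie below the untreated ones, and Gabarap is the highest of its family in both groups.

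As parts of the summed length-scaled level of the 6 receptors, Sqstm1 made up 35.9% in dox and 30.8% in untreated libraries, and Tax1bp1 31.7% in dox and 38.0% in untreated libraries. Calcoco1 made up 5.64% in dox and 2.68% in untreated libraries, and Optn 2.93% in dox and 7.11% in untreated libraries. The summed level itself was 275.1 CPM per kilobase in dox and 210.6 in untreated libraries. These shares describe RNA levels and not the amounts of the proteins.

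**Figure D3:**
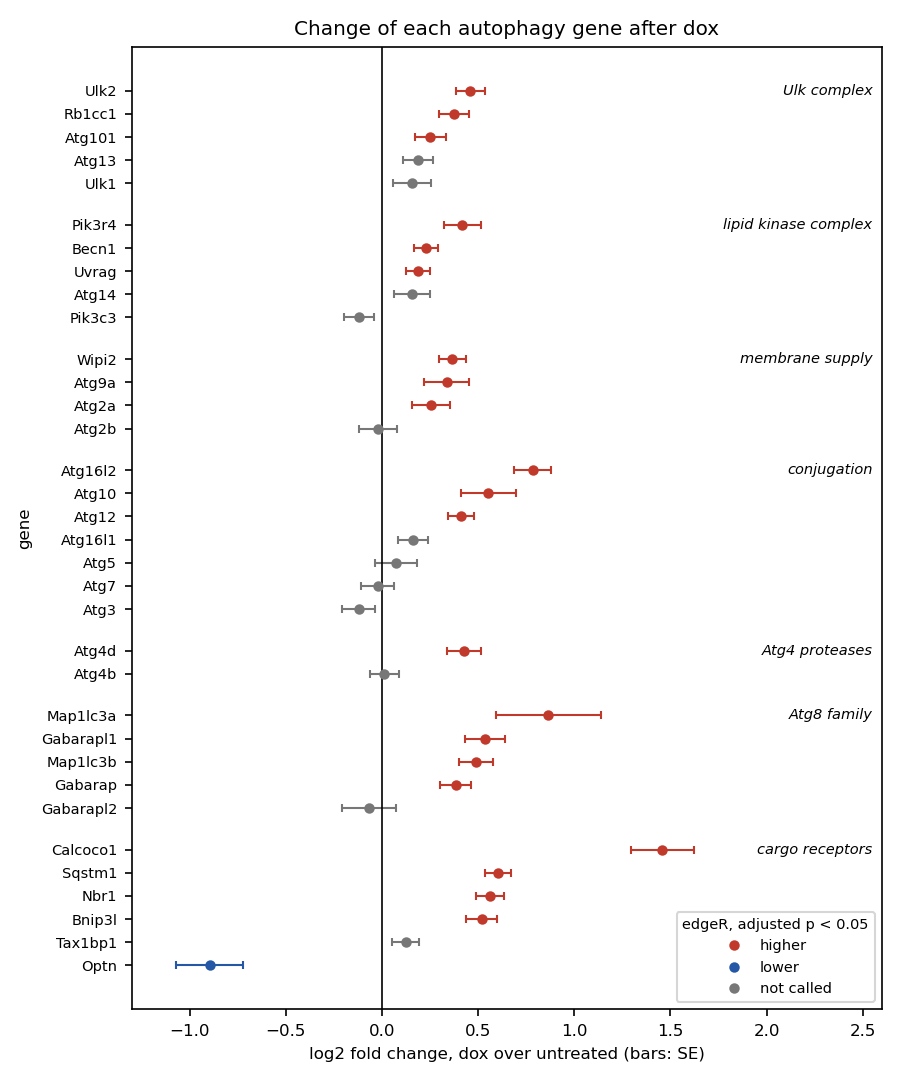
The log2 fold change of dox over untreated for each of the 34 tested genes, ordered by size within each role, with bars of 1 SE. Red points were called higher, the blue point (Optn) lower, and grey points did not pass the test, among them Ulk1, Pik3c3, Atg5 and Atg7.

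The promoters of 4 of these genes are shown because they include the largest rise, the fall, the largest rise of the conjugation system and the gene with the most matches to a motif of the autophagy regulator Tfeb. Each is a RefSeq window of 300 bases, 250 before and 50 after the annotated gene start, on build GRCm38.p6, which is not the build of the counts. Windows were at hand for 28 of the 35 genes (30 windows, since some genes have more than 1 start). The windows lie as follows: Calcoco1 at chr15:102722129-102722428, minus strand, Optn at chr2:5064068-5064367, minus strand, Atg16l2 at chr7:101302039-101302338, minus strand, Atg3 at chr16:45158579-45158878, plus strand. Capitals mark matches on either strand to the motifs searched, and the windows of Calcoco1 and Optn hold none.
Calcoco1: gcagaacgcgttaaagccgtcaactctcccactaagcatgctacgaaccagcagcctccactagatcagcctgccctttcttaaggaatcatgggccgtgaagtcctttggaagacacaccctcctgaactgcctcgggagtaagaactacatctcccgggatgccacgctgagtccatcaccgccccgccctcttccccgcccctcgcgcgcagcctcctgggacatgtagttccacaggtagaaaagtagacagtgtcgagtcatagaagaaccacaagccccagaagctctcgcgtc
Optn: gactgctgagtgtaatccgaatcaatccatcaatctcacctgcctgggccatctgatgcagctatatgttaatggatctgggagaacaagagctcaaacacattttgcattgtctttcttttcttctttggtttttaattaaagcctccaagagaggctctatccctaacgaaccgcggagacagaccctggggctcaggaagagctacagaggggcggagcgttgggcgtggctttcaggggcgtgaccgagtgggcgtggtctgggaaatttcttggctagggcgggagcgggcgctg
Atg16l2: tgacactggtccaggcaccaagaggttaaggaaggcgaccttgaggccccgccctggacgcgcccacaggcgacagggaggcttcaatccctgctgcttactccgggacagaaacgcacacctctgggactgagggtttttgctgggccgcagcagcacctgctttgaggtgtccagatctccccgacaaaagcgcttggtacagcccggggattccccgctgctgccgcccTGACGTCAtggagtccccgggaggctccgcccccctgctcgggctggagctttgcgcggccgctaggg
Atg3: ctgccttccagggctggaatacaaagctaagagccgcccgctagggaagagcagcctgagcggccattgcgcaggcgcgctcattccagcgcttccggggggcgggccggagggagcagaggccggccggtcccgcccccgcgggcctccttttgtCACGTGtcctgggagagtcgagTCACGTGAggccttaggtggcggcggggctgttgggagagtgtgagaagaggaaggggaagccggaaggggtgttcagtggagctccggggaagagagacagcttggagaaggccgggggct

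The palindromic E-box CACGTG, bound by Tfeb, Tfe3 and also by Myc, was in 4 of the 30 windows and in 7.15% of 32851 windows of all genes. Its 4 genes were Atg3, Atg5, Atg7 and Atg14, all among the 10 genes with a window that did not pass the test after dox. It was in 0 of the 16 risen genes with a window. At a share of 7.15% over all windows, few or no matches are likely among 16 genes, and the difference was not tested. The longer form TCACGTGA, which contains the E-box and resembles the CLEAR element of lysosomal genes, was in 1 window, that of Atg3, and in 0.974% of all windows. In Atg3 the E-boxes begin at positions 157 and 180 of the window, counted from 1 at its 5′ end, and the second lies within the longer form. The forkhead element GTAAACA, bound by FoxO factors, was in 0 of the 30 windows and in 3.65% of all windows. The cyclic AMP response element TGACGTCA, added after the sequences had been read, was in the windows of Atg16l2, where it begins at position 233, and Atg5, and in 1.79% of all windows. These matches describe letters in short windows only.

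Beyond the 35 genes, 61 other genes of the pathway were counted from 5 lists, of which 57 were tested, 25 rose, 4 fell and 28 did not pass. The rises are 43.9% of the 57 and the falls 7.02%, beside the shares of 27.0% and 26.6% over all genes tested. The median log2 fold change was 0.17.

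Among transcription factors that control autophagy genes, 4 of 7 rose (57.1%, beside 27.0% of all genes tested) and 3 did not pass. Tfeb, the main regulator of lysosomal and autophagy genes, measured 96.1, 92.1 and 89.6 CPM in dox replicates 1, 2 and 3, against 54.1, 50.5 and 51.6 CPM in untreated replicates 1, 2 and 3 (log2 fold change 0.83, SE 0.07, adjusted p = 2.1e-05). Foxo1, which in other tissues activates several of the 35 genes, measured 416, 358 and 394 CPM in the dox libraries, against 230.1, 165 and 219.8 CPM in the untreated ones (log2 fold change 0.93, SE 0.12, adjusted p = 0.000235). Both stood far apart between the groups. Zkscan3, described as a repressor of autophagy genes, also rose, by 0.47 (SE 0.09, adjusted p = 0.00264) on the log2 scale. Foxo4 rose by 0.28 (SE 0.09, adjusted p = 0.0238), a call lost without dox replicate 1 (adjusted p = 0.0941), dox replicate 2 (0.0542), untreated replicate 2 (0.0775) or untreated replicate 3 (0.088), range 0.00806 to 0.0941. Foxo3 (0.26), Tfe3 (0.19) and Mitf (−0.64) did not pass.

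Of 13 genes for the fusion of autophagosomes with lysosomes, 8 rose and 1, Vps16 (−0.35), fell. These are 61.5% and 7.69%, beside 27.0% and 26.6% of all genes tested. Snap29 measured 173, 158 and 176 CPM in the dox libraries, against 106, 104 and 101 CPM in the untreated ones (log2 fold change 0.70, SE 0.07, adjusted p = 4.14e-05). Plekhm1, an adaptor between Rab7 and the HOPS tether, had a log2 fold change of 0.64 (SE 0.09, adjusted p = 0.000248) and Vamp8, the lysosomal SNARE, of 0.56 (SE 0.07, adjusted p = 0.000277). Rab7 did not pass, at −0.05.

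Of 15 other core and accessory genes 13 were tested, of which 6 rose (46.2%, beside 27.0% of all genes tested) and 7 did not pass. Rubcn (Rubicon), known as an inhibitor of autophagosome maturation that binds Uvrag, had the smallest p, at 84.4, 78.8 and 84.2 CPM in the dox libraries, against 41.7, 44.5 and 39.4 CPM in the untreated ones (log2 fold change 0.98, SE 0.08, adjusted p = 1.44e-05). Trp53inp1, a p53 target that binds LC3, changed by 1.10 (SE 0.10, adjusted p = 2.66e-05) and Tecpr1, a tether of autophagosomes to lysosomes, by 1.00 (SE 0.13, adjusted p = 0.000225). Rubcn is a known inhibitor and Trp53inp1 and Tecpr1 are known to promote autophagy.

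Among 12 genes of selective autophagy, 10 were tested. The 5 that rose were Pink1, Wdfy3, Bnip3, Ccpg1 and Fundc1, and the 2 that fell were Phb2 and Tbk1. Over all genes tested, 27.0% rose and 26.6% fell. Pink1, the kinase that flags damaged mitochondria, measured 86, 82.3 and 72.5 CPM in the dox libraries, against 46.2, 44.5 and 39.4 CPM in the untreated ones (log2 fold change 0.89, SE 0.09, adjusted p = 6.5e-05). Wdfy3 (Alfy), a scaffold for protein aggregates, changed by 0.68 (SE 0.12, adjusted p = 0.00118). Phb2, a protein of the inner mitochondrial membrane that can serve as a receptor, changed by −0.43 (SE 0.07, adjusted p = 0.000572). Tbk1, the kinase that phosphorylates Optn, changed by −0.23 (SE 0.07, adjusted p = 0.0254) and was lost without dox replicate 1 (adjusted p = 0.0623), dox replicate 3 (0.0506), untreated replicate 2 (0.109) or untreated replicate 3 (0.0725), range 0.0171 to 0.109.

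Genes of the signalling that turns autophagy on or off had the smallest share of called genes of the 5 lists. Of 14, 2 rose, Prkaa1 and Mtor, 1 fell, Rheb, and 11 did not pass. Thus 14.3% rose and 7.14% fell, beside 27.0% and 26.6% of all genes tested. Prkaa1, a catalytic subunit of the AMPK kinase that activates Ulk1, changed by 0.37 (SE 0.07, adjusted p = 0.00204). Prkaa2, the alternative catalytic subunit, did not pass (log2 fold change 0.06, SE 0.10, adjusted p = 0.632). Mtor, the kinase that holds autophagy off, changed by 0.49 (SE 0.13, adjusted p = 0.00939) with a wide spread, at 535, 759.7 and 658 CPM in the dox libraries, against 437, 516 and 438 CPM in the untreated ones. Rheb, the activator of mTORC1, measured 52.7, 50.2 and 63.5 CPM in the dox libraries, against 86.3, 78.6 and 73.7 CPM in the untreated ones (log2 fold change −0.52, SE 0.10, adjusted p = 0.00243).

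**Figure D4:**
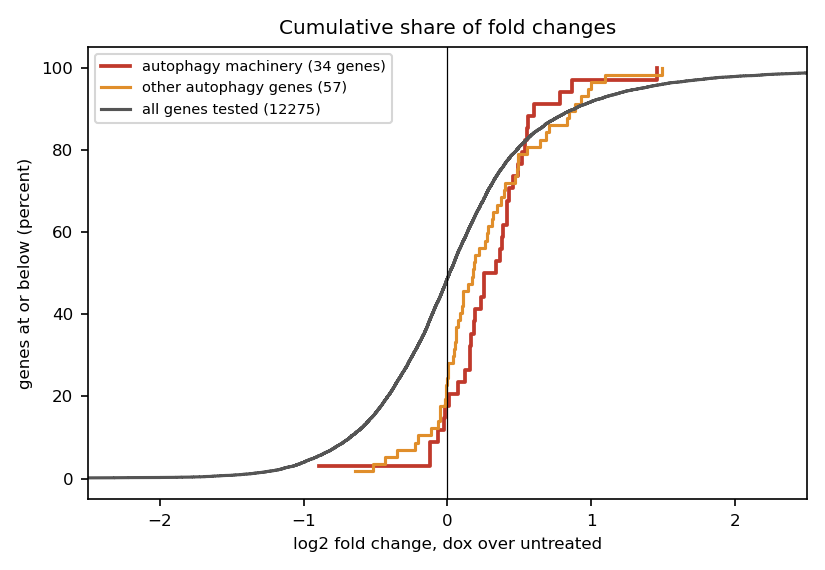
Cumulative share of genes (percent) by log2 fold change of dox over untreated, for the 34 tested genes of the autophagy machinery, the 57 other autophagy genes and all 12275 genes tested (184 of them lie beyond 2.5 in either direction and are not drawn). The curve of the machinery crosses its middle at 0.30 and that of all genes at 0.01.

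Some of the 35 genes overlap another counted gene on the genome, and without a known strand setting their reads cannot be told apart. For Atg12 the partner was Ap3s1 (20.3 CPM in dox and 20.6 CPM in untreated libraries), and for Atg4d it was Kri1 (77.6 CPM in dox and 75.0 CPM in untreated libraries). Neither partner passed the test. The partners of Becn1 (Cntd1), Map1lc3b (Zcchc14), Gabarapl1 (1700101I11Rik) and Atg16l1 (Scarna6) were at 1.30 CPM or less in both groups.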

How the data were processed

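The deposited values were whole-number counts of reads per gene in 6 libraries, beside a gene length. The submitters' processing notes name CASAVA 1.8.2, featureCounts and mm9; the aligner, annotation and strand setting are not given in these sources. RefSeq (GRCm38.p6) gave symbols for 24176 of 26286 identifiers and the promoter windows.

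filterByExpr (minimum count 10) kept 12275 genes. Counts were scaled by TMM (factors 0.991 to 1.01) and tested with edgeR 4.0.16 (quasi-likelihood, R 4.3.3), without a block, with Benjamini-Hochberg adjustment across the 12275. Adjusted p-values come from this test unless another is named. SE is the log2 fold change's size over the square root of F. CPM per kilobase uses the deposited gene length. The scripts were checked on simulated counts in which only a small part of the genes changed. In these data 53.6% of all genes tested were called, a setting that the check does not cover.

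The 35 genes, other lists and tests were chosen with earlier results of these data known. Library values are given for the 3 smallest p in each of 7 roles and for called genes of log2 fold change 0.58 or more in size. In each of 5 other lists the 3 called genes of smallest p are named, with genes behind counts of 5 or fewer, and in each marker list of another cell type the 2 most abundant. Others given values (among them Ulk1, Atg2b, Gabarapl2 and Atg4a) were added after their values were seen. Alternatives were other scalings, other low-count filters, DESeq2 1.42.0, limma 3.58.1 (voom), a replicate block, single libraries left out and a 0.01 threshold.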

Additional observations from a re-analysis of the deposited data

How the results depend on the processing

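Of the 22 calls among the 35 genes, 16 (15 higher, and Optn lower) passed under all 15 alternatives, and 6 were lost under at least 1. No called gene changed direction under any of them. Other than through left-out libraries or the 0.01 threshold, Atg2a was lost with DESeq2 size factors (adjusted p = 0.0509), with total counts alone (0.0524), without a low-count filter (0.0845) and with limma voom (0.0544). Uvrag was lost without a filter (0.131) and with DESeq2 (0.0629), Atg101 without a filter (0.0646) and Map1lc3a with DESeq2 (0.0678). Atg13 passed with upper-quartile scaling (0.0475).

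The number of genes higher was 20, 22 and 20 with DESeq2 size factors, upper-quartile scaling and total counts, 18 unfiltered, 21 where 1 CPM was required in 3 libraries, 19 by DESeq2, 20 by limma voom and 15 at an adjusted p under 0.01. It ran from 15 to 19 when 1 library was left out, and the number lower was 1 in each case. The median log2 fold change of the 34 genes ran from 0.24 (without dox replicate 2) to 0.33 when 1 library was left out. Over the alternatives, 22 to 26 other autophagy genes were higher and 3 to 4 lower.

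Same-numbered libraries had correlations of deviations of 0.305, 0.288 and −0.0373 for replicates 1, 2 and 3. Dox replicate 2 with untreated replicate 1 gave −0.283, and dox replicate 1 with untreated replicate 2 gave −0.336. Replicates 1 and 2 thus correlated best with their own number, and replicate 3 did not. The labels do not say that the numbers pair mice, so the main test had no block. With the replicate block, 21 of the 35 genes were higher and 1 lower. Low counts limit what can be said of Map1lc3a and Wipi1.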
